A study of Mus musculus with 6 samples.

Results

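Translation initiation and elongation factors were examined in Met-1 mammary carcinoma cells in which miR-200c was switched on. The members were the genes whose symbols in the deposited table start with Eif1 to Eif6, Eef1 or Eef2. The eIF2 kinases, the Argonaute genes once named Eif2c, and symbols that mark pseudogenes or predicted genes were left out. This rule gave 59 of 43548 gene identifiers, and it used no measured value other than to choose between repeated symbols, of which there were 0 among the members. Met-1 is a mouse cell line from a late MMTV-PyMT mammary tumor of strain FVB/nJ. All 6 libraries came from Met-1 TripZ-200c cells, a single clone that carries a lentiviral pTripZ-RFP vector with the precursor of miR-200c under a doxycycline (Dox) inducible promoter, and that had been sorted for intermediate induction. The labels place 3 libraries in the group Minus Dox, from cells given vehicle, and 3 in the group Plus Dox, from cells given 1 µg/mL Dox, all for 48 h. The control line with an empty vector is not in these libraries, so that effects of Dox, of vector induction and of miR-200c cannot be told apart, and with a single clone, traits of that clone cannot be told apart from those of Met-1 cells.

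Initiation factors bring the initiator tRNA and the small ribosomal subunit to the capped end of an mRNA, scan to the start codon and release the large subunit for joining. Elongation factors then deliver aminoacyl-tRNA to the ribosome and move it along the message. Output is set largely after transcription, by phosphorylation of eIF2, of the eIF4E-binding proteins and of eEF2, and mRNA levels say nothing of those marks. Many of these mRNAs belong to the transcripts that growth signals control through mTOR, and several initiation factors are raised in breast cancer.

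The induced miRNA pairs with mRNAs chiefly through its seed, bases 2 to 8, and represses those with matches in the 3′ UTR. The mature sequence (RefSeq, GRCm38.p6, chr6:124718324-124718346, minus strand) is printed with the seed in capitals. It is followed by seed matches, also in capitals, in 4 of the 10 tested members that have one. In the results below Eif5a2 and Eif4ebp2 were called, and Eif4e2 and Eif4e were not. Each match stands within 30 bases of the longest annotated 3′ UTR (GENCODE annotation of GRCm38), and in Eif5a2 and Eif4e2 it is followed by an A, the form that is usually the most effective.
miR-200c-3p: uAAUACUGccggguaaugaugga
Eif5a2: tgccatttagaCAGTATTaacaggttgaac
Eif4e2: ctgagcgttatCAGTATTatgaatgcttgc
Eif4ebp2: aaaacatcttcCAGTATTgggaaggttatt
Eif4e: ttgcctttccaCAGTATTcgaaaaagaact

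The values are FPKM, fragments on a gene scaled to its length and to the mapped total of the library, so that levels are per length and may be compared between genes, but how many reads a value rests on is unknown. Summed FPKM was 800267 to 815139 per library, and 16867 to 18012 genes were above 0. Zeb2, a repressor of epithelial genes and a known miR-200c target, was 29.4, 30.7 and 27.9 FPKM without Dox and 9.04, 7.82 and 8.004 with Dox. Its log2 fold change was -1.81 (limma, Benjamini-Hochberg adjusted p = 4.48e-05), and Vim fell by 0.35 on the log2 scale (limma adjusted p = 5.66e-04). The epithelial adhesion gene Epcam was 0.0844 to 0.161 FPKM without Dox and 3.88 to 4.31 with Dox (limma adjusted p = 5.26e-04). Cdh1, encoding E-cadherin, was 0.0419 to 0.0776 FPKM without Dox and 0.554 to 1.24 with Dox, below the filter. The row of the miR-200c gene itself was listed at 0 in all 6 libraries. The summed FPKM of 6 epithelial markers was 91.6 to 97.0 without Dox and 369 to 406 with Dox. Krt18 made up nearly all of it, at 91.2 to 96.4 FPKM without and 364 to 400 FPKM with Dox. Both tested markers, Krt18 and Epcam, were called higher, and Krt19 was at 0. The summed FPKM of the 5 mesenchymal markers with a value in every library was 8070 to 8150 without Dox and 5805 to 6082 with Dox, mostly from Vim and S100a4. Fn1 lacked a value in Minus Dox 3 and Plus Dox 3, and 4 of all 6 were called lower. Their part in the results on translation factors was not tested. Among markers of other cells, Cd3e, Adipoq and Plin1 were at 0 throughout, Adgre1 was not analysed here, Ptprc was at most 0.161 and Pecam1 at most 0.0848 FPKM. Summed FPKM was 6.39 to 11.4 without and 6.83 to 7.63 with Dox for the leukocyte markers, of which Cd68 made up most, and 4.47 to 5.12 and 4.19 to 4.59 for 4 endothelial markers, mostly from Cdh5. For 3 adipocyte markers it was 3.88 to 5.51 and 2.15 to 2.80, all of it from Lpl, a lipase that passed as lower (limma adjusted p = 0.0253).

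Translation factors were among the more abundant mRNAs of these cells and differed little between the groups. The samples are bulk RNA, in which a smaller share of cells with a transcript and less of it per cell cannot be told apart. Of the 59 members, 54 had a mean of at least 1 FPKM and were tested. Their median level was 143 FPKM, against 22.8 over all 12879 genes tested, and the 59 members together took 2.37% to 2.50% of all FPKM in a library. Eef1a1, Eef2 and Eif5a alone made up 53.4% to 54.6% of that. The plot of levels by complex shows the span, from Eif3j1 at 2.89 FPKM to Eef1a1 at 6961 FPKM.

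**Figure D1:**
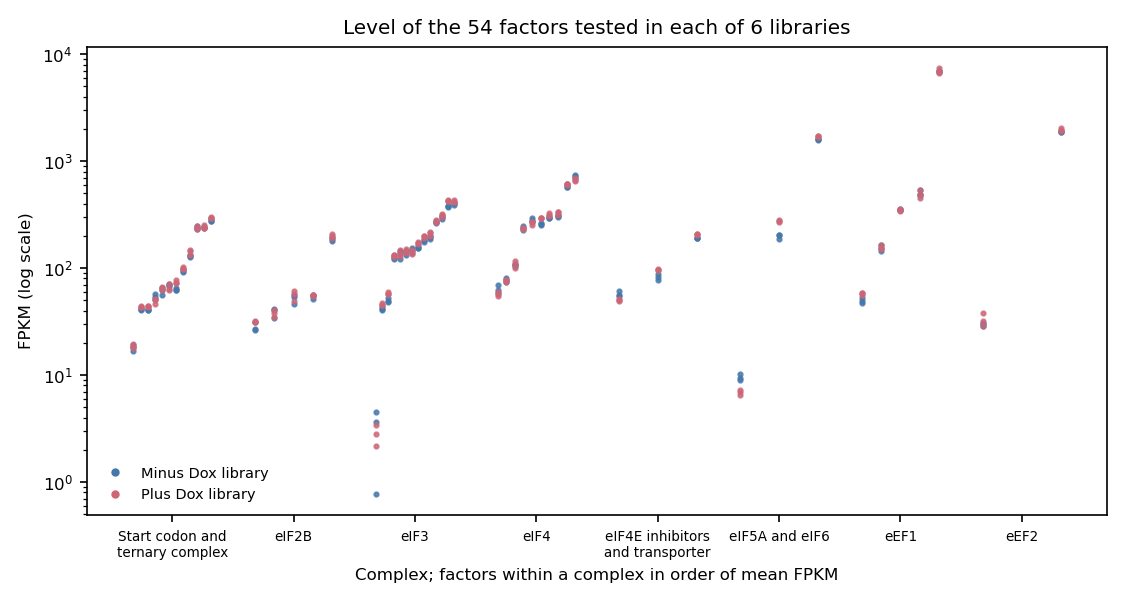
FPKM (log axis) of the 54 factors tested, by complex; each column of dots is a factor, blue dots are the 3 Minus Dox libraries and red dots the 3 Plus Dox libraries. Eef1a1, Eef2 and Eif5a stand above all others, and for most factors the dots of both groups fall on each other.

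In the comparison of Plus Dox with Minus Dox, 11 of the 54 (20.4%) were called higher, where 7.06% of all genes tested were called higher. Only Eif5a2 (1.85% of the 54) was called lower, where the share over all genes was 7.97%. A call means a Benjamini-Hochberg adjusted p under 0.05 in limma over all genes tested, by which 15.0% of genes passed in either direction. An unadjusted p under 0.05 was found for 23 members, and the share of all genes at that threshold was not counted. The median log2 fold change was 0.06 over the members and 0.00 over all genes tested, and 75.9% of members against 50.8% of all genes lay above 0. Every one of the 12 changes was under 1.5-fold, as were 1483 of the 1935 changes over all genes. The median size of the log2 fold change regardless of sign was 0.09 over members and 0.13 over all genes. In 19 members (35.2%) all Plus Dox libraries lay above all Minus Dox libraries, against 17.4% of genes tested. In 3 (5.56%), Eif4a2, Eif4enif1 and Eif5a2, all lay below, against 17.6%.

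The count of higher members rested on small differences, and leaving out a library lowered it to between 3 (without Plus Dox 3) and 9 (without Minus Dox 3). It was 5 without Minus Dox 1 and 4 without Minus Dox 2, Plus Dox 1 or Plus Dox 2. In these fits 5.56% to 16.7% of members and 3.72% to 5.35% of all genes were called higher. The shares stood closest without Plus Dox 3, at 5.56% and 3.72%, and without Minus Dox 3 they were 16.7% and 5.29%. The call of Eif5a2 was lost without Minus Dox 2, Minus Dox 3, Plus Dox 2 or Plus Dox 3, which leaves 0 lower members. Eif6, Eif3c and Eif4b were called in each of these 6 fits and in each of the 11 other alternative settings at the same threshold. After quantile normalization, 7 were called higher and 1 lower (6.78% and 8.07% of all genes).

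**Figure D2:**
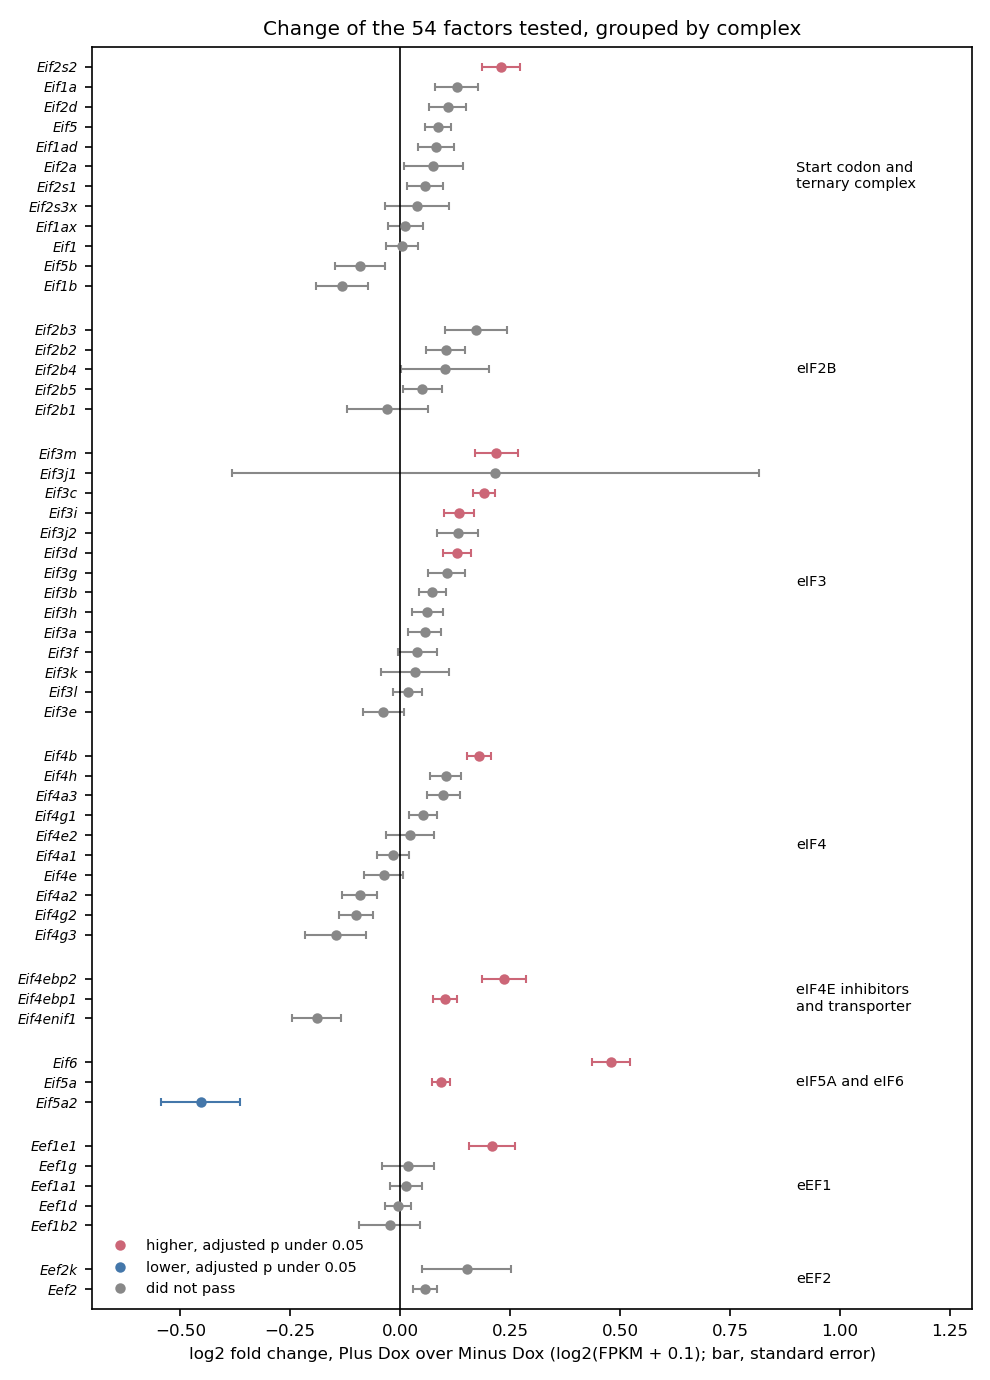
Log2 fold change (Plus Dox over Minus Dox, on log2(FPKM + 0.1)) of the 54 factors, as dots with standard error bars, grouped by complex and colored by the limma call. The eIF3 dots lie above 0 for 13 of 14 subunits, the eIF4 dots lie on both sides, and Eif6 and Eif5a2 are farthest out in either direction.

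The factors that select the start codon and carry the initiator tRNA gave 1 call among 12 tested. It was Eif2s2 (chr2:154871410-154892935), the beta subunit of eIF2, which binds the initiator tRNA as a complex with GTP. Eif2s2 was 64.8, 63.0 and 61.8 FPKM without Dox and 72.8, 72.3 and 77.0 FPKM with Dox. All Plus Dox libraries were above all Minus Dox libraries, and the log2 fold change was 0.23 ± 0.04 (SE; limma, Benjamini-Hochberg adjusted p = 0.0141), lost without Plus Dox 3 (limma adjusted p = 0.0545). Eif2s2 shares 9.04% of its longest transcript at up to 99.5% identity with Gm9892, listed at 202.5 FPKM, and its value is uncertain to that extent. The alpha subunit Eif2s1, which carries the serine that stress kinases phosphorylate, was 91.8, 94.5 and 98.98 FPKM without Dox and 101, 97.5 and 97.8 FPKM with Dox. The groups overlapped (log2 fold change 0.06, limma adjusted p = 0.424). The gamma subunit Eif2s3x was the lowest of this group, at 16.9 to 19.3 FPKM without and 17.8 to 19.5 FPKM with Dox. Its near-identical neighbor in sequence, Gm2223, held 73.0 FPKM on average, so that the level of the gamma subunit is uncertain. Eif2s3y, its copy on the Y chromosome, was listed at 0 in all libraries.

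Eif5, the GTPase activator of eIF2, had the highest level of this group. It was 277, 275 and 286 FPKM without Dox and 296, 292 and 301 FPKM with Dox. All Plus Dox libraries were higher, yet the log2 fold change of 0.09 did not pass (limma adjusted p = 0.0966). The scanning factors Eif1 and Eif1ax had log2 fold changes of 0.00 and 0.01, Eif1a 0.13 and Eif1b -0.13, and the subunit-joining factor Eif5b had -0.09. None of these passed (limma adjusted p = 0.135 to 0.962).

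The 5 subunits of eIF2B, the exchange factor that recharges eIF2 with GTP and is blocked by phosphorylated eIF2, gave 0 calls in limma with Benjamini-Hochberg adjustment, with 1 unadjusted p under 0.05, and 0 calls by an unmoderated linear model per gene. Eif2b5, the catalytic epsilon subunit, was 51.8, 56.2 and 54.5 FPKM without Dox and 56.3, 56.7 and 55.3 FPKM with Dox. The groups overlapped (log2 fold change 0.05, limma adjusted p = 0.516). Eif2b2, the most abundant subunit, was 181, 186 and 194 FPKM without and 192, 210 and 201 FPKM with Dox, with overlap (limma adjusted p = 0.180). Eif2b3, the least abundant, was 27.2, 26.4 and 31.1 FPKM without Dox and 32.1, 31.6 and 31.5 FPKM with Dox, without overlap. Its log2 fold change of 0.17 did not pass (limma adjusted p = 0.160) except without Minus Dox 3 (limma adjusted p = 0.0410).

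eIF3 is the large scaffold that holds the small subunit and the mRNA together, and 4 of its 14 subunits were called, the highest count in the largest group. By share this was below eIF5A with eIF6, where 3 of 3 were called, and the eIF4E inhibitors and transporter, with 2 of 3. Summed FPKM of its subunits was 2494, 2534 and 2529 without Dox and 2666, 2724 and 2637 with Dox. The log2 fold change was above 0 for 13 of 14, with a median of 0.09. Eif3j1 is one of the 13, although its mean was 2.97 FPKM without and 2.82 FPKM with Dox. Eif3c, a core subunit (chr7:126546455-126566411), was 370, 378 and 379 FPKM without Dox. With Dox it was 422, 435 and 428 FPKM. It was 1.14-fold higher, with a log2 fold change of 0.19 ± 0.03 (SE; limma adjusted p = 0.00414).

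Eif3m (chr2:104999656-105017080), a further core subunit, was 47.9, 49.6 and 52.6 FPKM without and 59.4, 57.4 and 57.7 FPKM with Dox. The groups did not overlap, and the log2 fold change was 0.22 ± 0.05 (SE; limma adjusted p = 0.0254). The call was lost when any library other than Minus Dox 3 was left out (limma adjusted p = 0.0656 to 0.0792). Eif3m shares 31.0% of its longest transcript at up to 98.6% identity with Gm7658, which was at 88.7 FPKM and had a log2 fold change of 0.16 (limma adjusted p = 0.141). The authors' counting could have divided reads between them, and the value of Eif3m is uncertain to that extent.

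Eif3d (chr15:77958998-77970813), the subunit that can itself bind the cap, was 182, 175 and 183 FPKM without and 199, 199 and 193 FPKM with Dox. Eif3i (chr4:129591960-129600648), a subunit built of WD repeats, was 155, 155 and 162 FPKM without and 176, 170 and 172 FPKM with Dox. Both were higher in each Plus Dox library than in any Minus Dox library. Log2 fold changes were 0.13 ± 0.03 for each (SE; limma adjusted p = 0.0386 for Eif3d and 0.0402 for Eif3i). The Eif3d call was lost without any of the 6 libraries (limma adjusted p = 0.0615 to 0.114), and that of Eif3i without any but Minus Dox 3 (limma adjusted p = 0.0735 to 0.116).

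The most abundant subunit, Eif3b, was 402, 407 and 389 FPKM without and 412, 432 and 416 FPKM with Dox, and neither it (limma adjusted p = 0.174) nor the scaffold subunit Eif3a passed. Eif3a was 122, 125 and 131 FPKM without Dox and 133, 128 and 132 FPKM with Dox (log2 fold change 0.06, limma adjusted p = 0.384). Eif3e had the lowest log2 fold change of the subunits, at -0.04. The loosely bound subunit eIF3j has a pair of genes that match at up to 99.4% identity over the whole of the shorter. Eif3j2 was 40.5 to 43.1 FPKM without and 44.8 to 47.1 FPKM with Dox (limma adjusted p = 0.109). Eif3j1 was 4.47, 0.778 and 3.66 FPKM without and 3.45, 2.17 and 2.83 FPKM with Dox, and its division from Eif3j2 is uncertain. Its log2 fold change of 0.22 had a standard error of 0.60 and turned to -0.53 without Minus Dox 2.

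The genes grouped by name under eIF4 showed no common direction, with log2 fold changes above 0 for 5 of the 10 tested and below 0 for the other 5. Eif4e, which binds the cap, was 81.1, 78.0 and 74.8 FPKM without Dox and 76.9, 76.7 and 74.1 FPKM with Dox. The scaffold Eif4g1 was 609, 574 and 575 FPKM without and 615, 597 and 610 FPKM with Dox. The helicase Eif4a1 was 230, 246 and 236 FPKM without and 230, 237 and 237 FPKM with Dox. In all 3 the groups overlapped, and log2 fold changes were -0.04, 0.05 and -0.02 (limma adjusted p = 0.625, 0.339 and 0.806).

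Eif4b (chr15:102073773-102097173), a cofactor that stimulates the helicase, was the call of this group. It was 264, 255 and 260 FPKM without Dox and 293, 293 and 295 FPKM with Dox. The Plus Dox libraries lay within 2 FPKM of each other and above all Minus Dox libraries. The log2 fold change was 0.18 ± 0.03 (SE; limma adjusted p = 0.00631). Eif4h, a smaller cofactor of the same helicase, was also higher without overlap, with a log2 fold change of 0.10 that did not pass (limma adjusted p = 0.1001).

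The most abundant of the group was Eif4g2, a relative of Eif4g1 that lacks the eIF4E-binding part and serves cap-independent initiation. It was 747, 688 and 724 FPKM without and 660, 696 and 658 FPKM with Dox (log2 fold change -0.10, limma adjusted p = 0.138). The lowest tested gene was Eif4g3, at 58.3 to 69.4 FPKM without Dox and 55.1 to 59.3 FPKM with Dox (log2 fold change -0.15, limma adjusted p = 0.214). Of the relatives of Eif4e, Eif4e2 was 101 to 116 FPKM over the 6 libraries. Eif4e3 was 0.181 to 0.437 FPKM and was not tested, and the germline form Eif4e1b was listed at 0 in all.

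Of the proteins that hold eIF4E away from the scaffold, Eif4ebp1 and Eif4ebp2 were both called higher. Eif4ebp2 (chr10:61428491-61452661) was 87.2, 81.8 and 77.3 FPKM without and 96.2, 97.7 and 95.7 FPKM with Dox. Eif4ebp1 (chr8:27260329-27276674) was 192, 191 and 193 FPKM without and 204, 207 and 207 FPKM with Dox. In neither did the groups overlap. Log2 fold changes were 0.24 ± 0.05 for Eif4ebp2 and 0.10 ± 0.03 for Eif4ebp1 (SE; limma adjusted p = 0.0215 and 0.0488). The call of Eif4ebp2 was lost without any library other than Minus Dox 1 (limma adjusted p = 0.0502 to 0.0712), and that of Eif4ebp1 without any of the 6 (limma adjusted p = 0.0850 to 0.146). Eif4ebp3 ranged from near 0 to 2.05 FPKM without and from near 0 to 1.29 FPKM with Dox and was below the filter. Eif4enif1, which carries eIF4E into the nucleus and acts in mRNA decay bodies, was 55.7, 61.7 and 54.8 FPKM without and 51.5, 50.2 and 49.2 FPKM with Dox. It lay lower in every Plus Dox library, but its log2 fold change of -0.19 did not pass (limma adjusted p = 0.0659).

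Eif6 showed the largest increase of the 54 factors. It encodes the factor that sits on the large ribosomal subunit and keeps it from joining the small subunit too early, and that is also needed to build the large subunit. Eif6 (chr2:155819832-155826925) was 186, 204 and 203 FPKM without Dox and 269, 281 and 276 FPKM with Dox. The Plus Dox libraries were all above the Minus Dox libraries by a gap several times the spread within either group. It was 1.39-fold higher, with a log2 fold change of 0.48 ± 0.04 (SE; limma adjusted p = 7.23e-04). The range of adjusted p over the 17 alternatives at the same threshold was 5.36e-04 to 0.0152.

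eIF5A, the protein that carries the modified amino acid hypusine and helps ribosomes past difficult sequences, has an abundant form and a minor form, and they moved in opposite directions. Eif5a (chr11:69916714-69921958) was 1614, 1588 and 1628 FPKM without Dox and 1699, 1729 and 1722 FPKM with Dox. The minor gene Eif5a2 (chr3:28781276-28798846), which is amplified in some tumors, was 9.04, 10.2 and 9.45 FPKM without Dox and 7.30, 6.99 and 6.57 FPKM with Dox. Neither gene had overlapping groups.

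The log2 fold change was 0.09 ± 0.02 for Eif5a and -0.45 ± 0.09 for Eif5a2 (SE; limma adjusted p = 0.0273 and 0.0172), so that Eif5a2 was at 0.730 of its level without Dox. After quantile normalization the value of Eif5a was 0.02 (limma adjusted p = 0.540), and its call was also lost without any library other than Minus Dox 3 (limma adjusted p = 0.0512 to 0.1003). Without Minus Dox 2, Minus Dox 3, Plus Dox 2 or Plus Dox 3 the adjusted p of Eif5a2 was 0.0502 to 0.0636 in limma. Eif5a shares 30.2% of its longest transcript at up to 97.2% identity with Eif5al3-ps, a pseudogene at 489 FPKM whose log2 fold change was 0.02 (limma adjusted p = 0.850), which makes its own value uncertain.

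**Figure D3:**
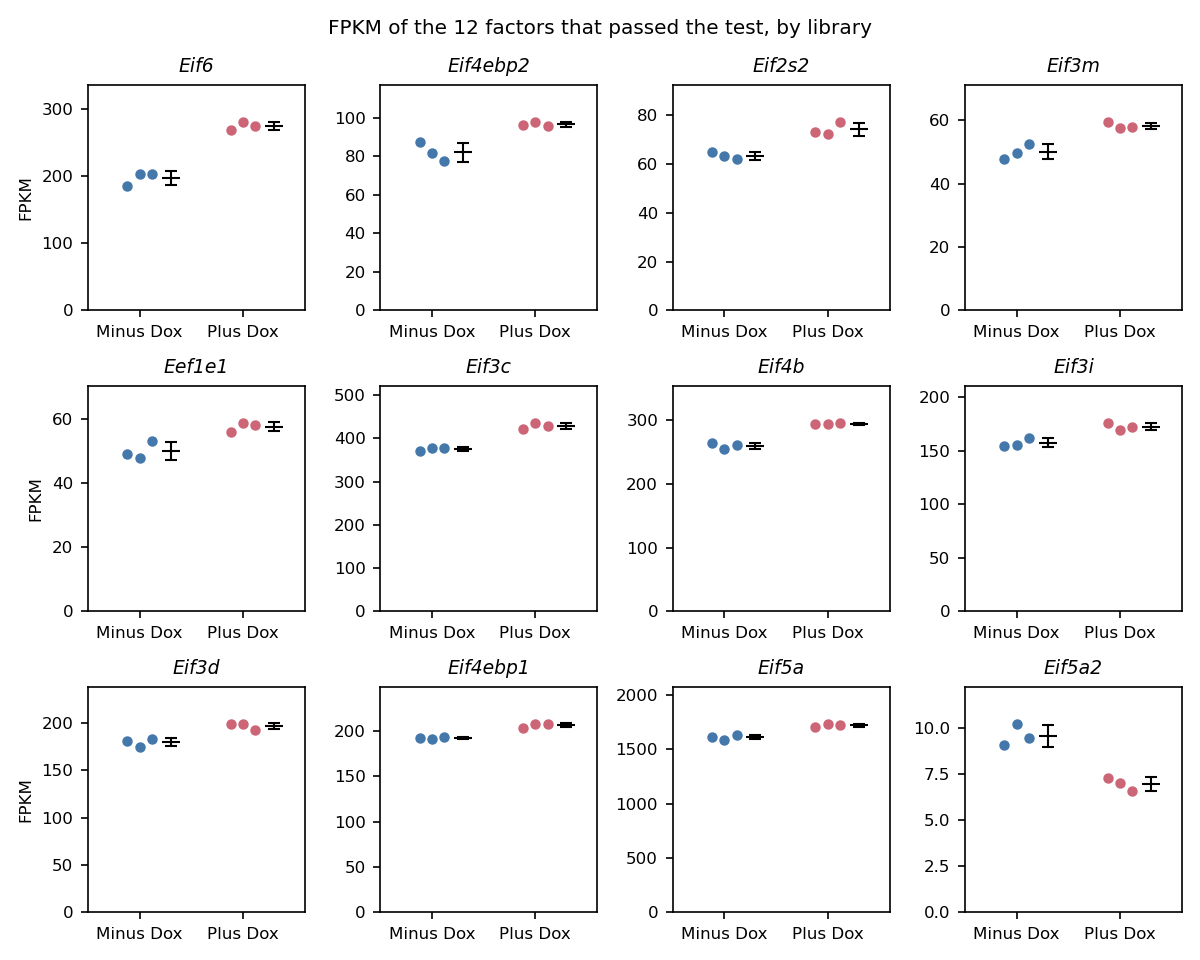
FPKM of the 12 factors called by limma, in order of log2 fold change; dots are libraries (blue, Minus Dox; red, Plus Dox), and the bars beside them give the mean and SD of 3 libraries. In all 12 panels the groups are apart, and Eif5a2 alone is lower with Dox.

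Among the eEF1 genes, 1 of 5 tested was called, and it is not an elongation factor in the strict sense. Eef1e1 (chr13:38644207-38659058) encodes a small auxiliary protein of the complex of aminoacyl-tRNA synthetases. It was 48.9, 47.6 and 53.0 FPKM without Dox and 56.0, 58.6 and 58.2 FPKM with Dox, without overlap. The log2 fold change was 0.21 ± 0.05 (SE; limma adjusted p = 0.0397), lost without any library other than Minus Dox 3 (limma adjusted p = 0.0702 to 0.119). The tRNA carrier Eef1a1, the most abundant member, was 6872, 6897 and 7014 FPKM without and 6671, 7384 and 6929 FPKM with Dox. The Plus Dox libraries enclosed the others (log2 fold change 0.01, limma adjusted p = 0.853), and without Plus Dox 2 the value was -0.03. The exchange factor subunits Eef1b2, Eef1d and Eef1g had log2 fold changes of -0.02, -0.01 and 0.02. Eef1a2, the form of muscle and neurons that is also found in some tumors, was at most 0.0902 FPKM without and 0.111 FPKM with Dox.

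Eef2, the translocase, was 1902, 1872 and 1866 FPKM without Dox and 1896, 2021 and 1947 FPKM with Dox. Its groups overlapped, and the log2 fold change of 0.06 (limma adjusted p = 0.235) turned to -0.03 after quantile normalization. It and Eef2k gave 0 calls in limma, 0 by the unmoderated model and 0 with an unadjusted p under 0.05. Eef2k, the kinase that inactivates it, was 29.9, 28.6 and 30.6 FPKM without and 28.9, 32.3 and 38.4 FPKM with Dox (limma adjusted p = 0.380).

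Summed over each complex, the differences were a few percent of the Minus Dox mean. eIF5A and eIF6 together were at 109%, 111% and 110% of it with Dox, against 99.1% to 101% in the Minus Dox libraries. For eIF3 the Plus Dox values were 106%, 108% and 105%, and for the eIF4E inhibitors and transporter 106%, 107% and 106%. In these 3 groups and in the start codon group (103% to 104%), no Plus Dox library overlapped a Minus Dox library. The eEF1 sum was 96.0% to 106% with Dox and overlapped the other group, as did the eIF4 sum at 99.3% to 102%. All 59 members summed to 100%, 106% and 103%, with the highest value in Plus Dox 2. These sums carry no test.

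**Figure D4:**
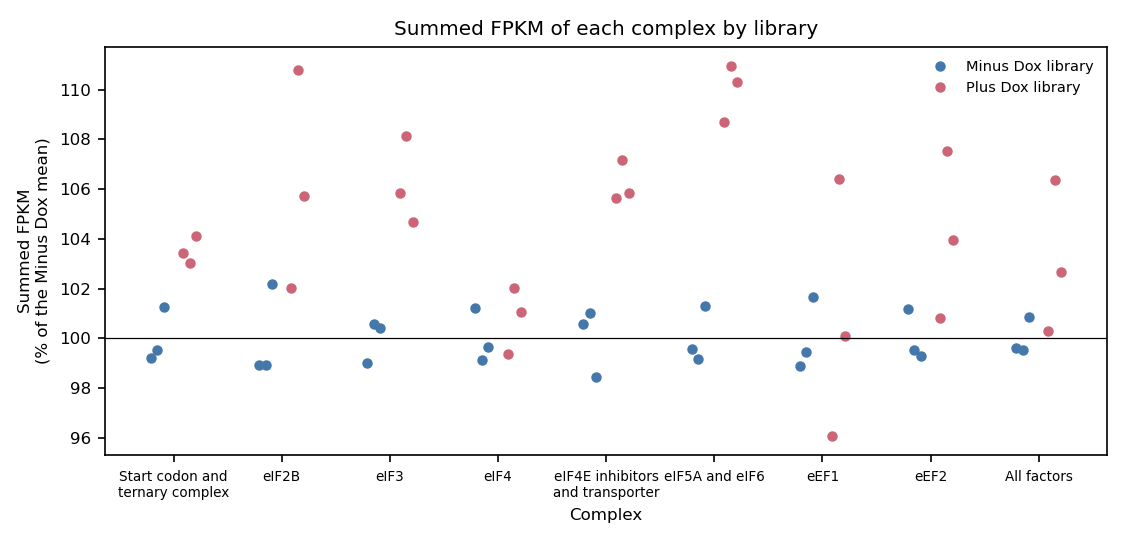
Summed FPKM of each complex and of all 59 factors in each library, as a percent of the mean of the 3 Minus Dox libraries (axis not from 0); blue dots are Minus Dox and red dots Plus Dox libraries. The red dots of eIF3, of the eIF4E inhibitors and of eIF5A with eIF6 stand clear of the blue ones, and those of eEF1 spread from 96.0% to 106%.

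Ratios within a library do not depend on how libraries were scaled. The 3 genes for eIF4E-binding proteins summed to 3.44, 3.52 and 3.65 times the FPKM of Eif4e without Dox and to 3.90, 3.996 and 4.09 times with Dox. The groups did not overlap, and the log2 difference was 0.18. An exact two-sided permutation test over libraries gave p = 0.1, the smallest that 3 against 3 libraries allow (adjusted 0.25 over 5 ratios). Eif4e shares 13.1% of its longest transcript at up to 98.6% identity with Gm7327, which was listed at 137 FPKM. The level of Eif4e, and so the size of this ratio, is uncertain to that extent. The share of Eif5a2 in the FPKM of Eif5a plus Eif5a2 was 0.557%, 0.638% and 0.577% without Dox and 0.428%, 0.402% and 0.380% with Dox. It too did not overlap (log2 difference of the ratio of Eif5a2 to Eif5a -0.55, exact permutation p = 0.1, adjusted 0.25). Eif4a2 made up 54.2% ± 1.15 (SD, n = 3) of the FPKM of both helicase genes without Dox and 52.9% ± 0.486 with Dox, with overlap (exact permutation p = 0.3, adjusted 0.5). The share of Eif4e2 plus Eif4e3 among the cap-binding genes was 57.9% ± 0.383 and 58.9% ± 2.07 (SD, n = 3; exact permutation p = 0.6, adjusted 0.75). That of Eef1a2 among the eEF1A genes was at most 0.00161% (exact permutation p = 0.9, adjusted 0.9).

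**Figure D5:**
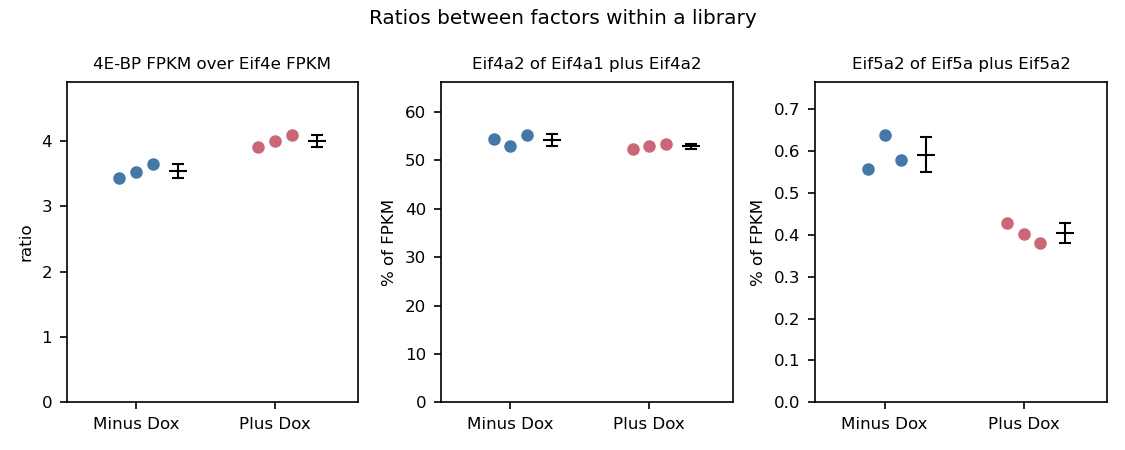
Ratio of the summed FPKM of the 4E-BP genes to that of Eif4e, share of Eif4a2 in both Eif4a genes, and share of Eif5a2 in both Eif5a genes, by library (blue, Minus Dox; red, Plus Dox; bars, mean and SD of 3). The first is higher and the third lower in each Plus Dox library, and the middle panel overlaps.

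Near-identical copies limit how far some of these levels can be read, since reads of 50 bases were counted. Of the 59 members, 21 share at least 10% of their longest transcript with another gene at 95% identity or more over 50 bases or more, and 2 of these, Eif3m and Eif5a, were called. Eif2s2, also called, stood just under that cut at 9.04%. Eif4a1 shares 38.9% at up to 100% identity with Eif4a-ps4, which was listed at 654 FPKM, above Eif4a1 itself. Eif3s6-ps2, a copy of Eif3e, was listed at 375 FPKM, and Gm13456, a copy of Eef1a1, at 517 FPKM. Without the 21 members that share at least 10%, 9 were called higher and 1 lower. Over all genes tested, 7.06% were called higher and 7.97% lower, which is 15.0% in either direction. Not all of the 21 were tested, since Eif4e1b, Eif4e3 and Eif4ebp3 were below the filter.

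Matches to the miR-200c seed (the letters CAGTATT, on the mRNA strand) stand in the longest 3′ UTR of 10 of 54 tested members (18.5%), against 16.1% of the 10798 tested genes with an annotated 3′ UTR. The median 3′ UTR was 970.5 bases in the members and 1201 over those genes. Over those genes, 17.3% of the 1737 with a match were called lower, against 7.33% of the 9061 without. Of the 10 members with a match, Eif5a2 was called lower, Eif4ebp2 was called higher and 8 were not called. The Eif5a2 match printed above starts at base 2278 of a 3′ UTR of 4391 bases. Eif4e2, with the same form of match at base 450 of 2676, had a log2 fold change of 0.02 (limma adjusted p = 0.836). Eif5b and Eif1a each have 2 matches, with log2 fold changes of -0.09 and 0.13. The others, Eif1ad, Eif2b3, Eif2b5, Eif2s1 and Eif4e, have 1 each. The log2 fold change was below 0 in 3 of the 10, against 61.0% of the 1737 genes with a match.

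Promoters of 250 bases before to 50 after an annotated start (RefSeq, GRCm38.p6) were found for 45 of the 59 members. The E-box CACGTG, which reads the same on both strands and is bound by Myc and related factors, was in 12 of the 45 (26.7%), against 12.2% of 8548 tested genes with a promoter and 7.15% of all 32851 promoter windows of that length. The windows around 4 of these are printed, with the E-box in capitals, since they belong to the translocase, the cap-binding protein and both forms of eIF5A.
Eef2 (chr10:81176576-81176605, plus strand): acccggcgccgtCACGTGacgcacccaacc
Eif4e (chr3:138527192-138527221, plus strand): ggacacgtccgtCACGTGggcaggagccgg
Eif5a (chr11:69921443-69921472, minus strand): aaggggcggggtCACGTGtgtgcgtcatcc
Eif5a2 (chr3:28781148-28781177, plus strand): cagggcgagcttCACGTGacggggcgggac

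Of the 12 members with an E-box in this window, Eif5a was called higher, Eif5a2 lower and the rest were not called, with a median log2 fold change of 0.04. The amino acid response element TGATGNAA, searched on both strands as were the others, was in 2 members (4.44%, against 2.46% of tested genes). The ETS motif CCGGAAGTG was in 4 (8.89% against 5.39%), namely Eif2b2, Eif3d, Eif5a and Eif5a2. A match describes the letters in this window only.

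Other genes of translation, 46 in all and all tested, gave 4 calls higher (8.70%, against 7.06% of all genes) and 3 lower (6.52%, against 7.97%), with a median log2 fold change of 0.01. Larp1, which holds mTOR-controlled mRNAs, was 90.6, 89.8 and 88.3 FPKM without and 102, 103 and 105 FPKM with Dox (log2 fold change 0.21, limma adjusted p = 0.00750). Mknk2, a kinase of eIF4E, was 83.8, 84.3 and 84.3 FPKM without and 96.1, 102 and 98.4 FPKM with Dox (0.23, limma adjusted p = 0.00722). Neither overlapped, and both calls held with any library left out.

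Ppp1r15a, the stress-induced subunit of the phosphatase that acts on eIF2, was 20.9, 21.9 and 22.6 FPKM without and 36.5, 28.8 and 28.7 FPKM with Dox. Its log2 fold change of 0.51 (limma adjusted p = 0.0165) lost its call without Minus Dox 1 (limma adjusted p = 0.0514). Pabpc1, the poly(A)-binding protein, rose by 0.14 on the log2 scale (limma adjusted p = 0.0195), lost without Minus Dox 1, Minus Dox 2, Plus Dox 2 or Plus Dox 3 (limma adjusted p = 0.0555 to 0.0785).

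The genes called lower were Impact, Dhx29 and Dph7. Impact, an inhibitor of the eIF2 kinase GCN2, was 37.7, 41.3 and 42.5 FPKM without and 27.6, 31.9 and 31.0 FPKM with Dox (log2 fold change -0.42, limma adjusted p = 0.0108), and its call held with any library left out. Dhx29, a helicase that aids scanning, fell by 0.18 on the log2 scale (limma adjusted p = 0.0392), and the call was lost without any of the 6 libraries (limma adjusted p = 0.0753 to 0.113). Dph7, an enzyme that makes the diphthamide of eEF2, fell by 0.54 on the log2 scale (limma adjusted p = 0.0383), and the call was lost without Minus Dox 2 or any Plus Dox library (limma adjusted p = 0.0724 to 0.109). None of the kinases that phosphorylate eIF2 (Eif2ak1 to Eif2ak4) passed. Of 10 members listed from textbook knowledge as carrying the 5′ terminal oligopyrimidine tract through which mTOR acts, 1 (Eif4b) was called higher and 0 lower. These are 10% and 0%, against 7.06% and 7.97% of all genes, so the share called higher was close to that over all genes. The median log2 fold change of the 10 was 0.03. At the annotated start itself, a C followed by at least 4 more pyrimidines was found in 2 of the 45 members with a promoter (4.44%, against 3.01% of tested genes), Eif3f and Eif2s3x. Of the 10 listed members, Eif3f had it there, and Eif4b, Eef1a1, Eef2, Eef1b2 and Eif3a did not. The rest of the 10 had no promoter window. Such a match depends on the exact base annotated as the start.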

How the data were processed

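Libraries of messenger RNA, 3 per group, were sequenced as single reads of 50 bases from a stranded kit. The authors mapped the reads with gSNAP, estimated expression with Cufflinks (the submitters' notes name GRCm38.p6), and deposited FPKM for each gene and library, with group means and their own comparison. That comparison, a signed fold score, p-values and a false discovery score deposited by the authors, was not used. There were 0 unused per-sample columns. FPKM removes depth, so the number of reads is unknown; the smallest steps between low values put relative depth at 0.920 to 1.49 of Minus Dox 1. Values of 37 mitochondrial genes are listed at 0. The 63 rows of repeated identifiers with a lower mean were dropped, and 6 placeholder values in 4 genes, none of them members, were treated as missing.

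The 12879 genes at a mean of 1 FPKM or more were compared on log2(FPKM + 0.1), a scale that understates changes of low genes, with limma 3.58.1 in R 4.3.3 (eBayes with trend, group as the only term), with Benjamini-Hochberg adjusted p-values called under 0.05. The study names an ANOVA per gene, which was run as an alternative, as were other pseudocounts, filters and scalings, a replicate block and each library left out. Within-library ratios (0.1 added to each term) were tested by exact permutation. For a share, the test and the log2 difference used the ratio of the named genes to the other gene. The fit was tested on simulated data. Shared sequence was found with BLAST 2.17.0 among GENCODE transcripts.

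The members and gene lists were chosen with earlier results of these data known. Named were the members that passed, 12 listed by name, the highest and lowest of each complex, and other translation genes that passed; Eif4enif1, Eif4h, Eif3e and further members were named after their values were seen. Whether the 3 libraries of a group are separate experiments or wells of the same plating is not given for the sequencing, so p-values may measure technical spread. A marker gene is not reported here.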

Additional observations from a re-analysis of the deposited data

How the results depend on the processing

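Against 11 members called higher, the count was 6 by ANOVA, 4 in limma without trend, 6 without a filter, 7 after quantile normalization, 3 at an adjusted p of 0.01 and 3 to 9 with a library left out. Of all genes, 4.64%, 5.16%, 3.81% and 6.78% were called higher in the first 4 of these, and their share at 0.01 was not counted. The members' count was 11 under the other pseudocounts, filter and scalings. Against 1 lower, it was 0 at 0.01 and 0 to 1 with a library left out. With the replicate block it was 5 higher (9.26% of members) and 0 lower, and all 5 were also called without it. With the block, 4.915% of all genes were called higher and 5.466% lower. Same-numbered libraries showed little tendency to deviate together (r = 0.0287, 0.0359 and -0.00759). Pairs with different numbers had r from -0.0511 to 0.0235. With only 3 libraries a group, such values cannot tell whether a number also marks a shared plating, which was not tested. Other translation genes called higher (4) were 2 at 0.01 and 2 to 5 with a library left out. Those called lower (3) were 1 by ANOVA, 1 with the block, 0 at 0.01 and 1 to 2 with a library left out. The sign turned for Eef2 after quantile normalization (-0.025) and, with a library left out, for Eef1a1 (-0.027 to 0.046, lowest without Plus Dox 2), Eif2s3x (-0.013 to 0.083, lowest without Minus Dox 1), Eif3j1 (-0.53 to 0.66, lowest without Minus Dox 2) and Eif4a1 (-0.040 to 0.011, highest without Minus Dox 2), none of them called. It also turned for the log2 difference of the ratio of Eef1a2 to Eef1a1 (-0.28 to 0.27, below 0 without Minus Dox 1, Minus Dox 3 or Plus Dox 3). Eef1a2 was at most 0.111 FPKM, so the 0.1 added to each term weighs heavily there. The ratio of Eif4e2 plus Eif4e3 to Eif4e turned as well (-0.0054 to 0.12, lowest without Plus Dox 3). The summed start codon factors ranged from 0.044 to 0.059 (highest without Minus Dox 3). The cause was not tested. With 3 libraries a group and the number of reads unknown, differences of a few percent in single factors were at the limit of detection.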
